A study of Mus musculus
Mus spretus with 18 samples.

Results

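Titin (Ttn) and the splicing factor Rbm20 were followed through the deposited RNA sequencing (RNA-seq) tables of F1 hybrid mouse tissues and cells. All rows named Ttn or Rbm20 were taken, which are 2 of the 38924 genes with expression values and 16 of the 100198 skipped exon (SE) events of the tissue tables, 6 of Ttn and 10 of Rbm20. An SE event is a single exon between a given pair of flanking exons. Splices passing over several exons at once are mostly not measured by it. Every library came from F1 hybrids with a C57BL/6J mother, a laboratory mouse strain, and a SPRET/EiJ father, an inbred Mus spretus strain, so each cell carried 1 allele of each species. Cerebral cortex, heart, kidney, lung, spleen and liver came from female mice aged 8 weeks, and embryonic stem cells (ESC) were 2 independent clones in culture. Each of these 7 tissues had 2 replicates, 14 libraries in all, and 4 further libraries were of cultured fibroblasts given 0.1 µM pladienolide B, an inhibitor of the splicing factor SF3B, or DMSO for 4 h. The study's methods give 2 animals as the source of the organs other than liver. The liver data were taken from an earlier study by the authors, and the paper states that they came from the same animals. For liver, tissue and study cannot be told apart. Libraries of different organs thus share animals, but the labels do not say which. The methods give longer reads for heart, kidney and cortex than for spleen, lung and ESC, trimmed to a common length before alignment. Between heart and spleen, lung or ESC, tissue and original read length cannot be told apart. The p-values below measure the spread between 2 libraries per group.

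Titin is the giant elastic protein of striated muscle. A single molecule reaches from the Z-disc to the M-band of the sarcomere, and its I-band part acts as a spring whose length depends on which exons are kept. Rbm20 is a nuclear RNA-binding protein of heart and skeletal muscle that represses the inclusion of many I-band exons of Ttn and regulates exons of other sarcomere and calcium handling genes, and mutations of either gene are a known cause of dilated cardiomyopathy.

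In GRCm38.p6, which has the coordinates of mm10, the build used by the authors, Ttn (ENSMUSG00000051747) lies on the minus strand of chromosome 2 from 76703980 to 76982557 and spans 279 kb. Rbm20 (ENSMUSG00000043639) lies on the plus strand of chromosome 19 from 53660989 to 53867083 and spans 206 kb. Exon positions below are 1-based and in mm10.

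The tissue tables held between 46558287 and 129496306 SE junction reads per library, with 87332952 and 84921835 in the heart replicates. The labelled heart was checked against markers of its muscle cells. All 8 cardiomyocyte markers were above 1 TPM (the unit of transcript level, scaled for transcript length and library total) in both heart libraries, and their summed TPM was between 78538 and 78912. In lung the sum was between 874 and 1099, and 7 of 8 markers were above 1 TPM, while the ventricular light chain Myl2 had only 0.0801 and 0.138 TPM there. In the other tissues and in the fibroblasts the sum was at most 81.3. Of the 9 skeletal muscle markers, 4 were above 1 TPM in heart. These were Ckm (3854 and 3546), Acta1 (255 and 227), Tnni2 (2.03 and 2.23) and Tnnt3 (1.05 and 1.27). The sum of the 9 was between 3778 and 4113 there, most of it from Ckm, and the fast skeletal myosins Myh2 and Myh4 were below 0.06 TPM.

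Ttn was detected mainly in heart. It had 102.7 and 110.1 TPM in the heart libraries, 1.30 and 6.53 in ESC, 1.26 and 0.915 in lung, 0.272 and 0.160 in spleen, 0.0860 and 0.0701 in cortex, 0.0370 and 0.0284 in kidney and 0.00199 and 0.000296 in liver. All 4 fibroblast libraries were listed at 0. The groups followed each other in this order without overlap, but ESC and lung differed by less than the sum of their SDs, 2.83 against 3.94 TPM, and so did liver and the fibroblasts. On the log2(TPM + 0.1) scale, heart exceeded the mean of the other 6 tissues by 8.16 ± 0.43 (SE; limma, adjusted p = 1.21e-07), and the difference from any single tissue was between 5.12 ± 0.56 for ESC and 10.04 ± 0.56 for liver. A gene was called higher or lower at an adjusted p below 0.05 and a log2 difference of at least 1, by which 11.6% of the 21925 genes tested were higher and 37.5% lower in heart. This split is tied to the scale. The median log2 difference of all genes was -0.72, and after every library was centred on its median gene 19.8% were higher and 18.1% lower, while the Ttn difference became 8.82.

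Rbm20 had its highest level in heart too, but was not limited to it. Its TPM was 158.8 and 139.4 in heart, 64.4 and 21.2 in ESC, 4.05 and 3.91 in cortex, 3.82 and 3.38 in kidney, 2.78 and 2.19 in lung, 1.11 and 1.37 in liver and 0.224 and 0.199 in spleen. The groups do not overlap, and only cortex and kidney differed by less than the sum of their SDs, 0.382 against 0.407 TPM. The log2 difference of heart from the other tissues was 5.68 ± 0.31 (SE; limma, adjusted p = 1.44e-07), or 6.35 after centring. Against ESC it was 2.00 ± 0.40 (adjusted p = 0.00105), the smallest of the 6, and against spleen 8.90 ± 0.40, the largest. In both heart libraries the TPM of Rbm20, which is a level per transcript length, was above that of Ttn, and Rbm20 ranked 718 and 835 among all genes where Ttn ranked 1099 and 1048. These values do not settle which transcript was more abundant, since the SE junction reads of Ttn were uneven along the gene. They were 69642 and 68429 at the 3′ end of the gene and 12 to 255 elsewhere. Coverage of the whole transcript was not measured. The Rbm20 event with the most reads had 5559 and 4717. In bulk tissue, fewer cells of a type and less RNA per cell cannot be told apart.

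**Figure D1:**
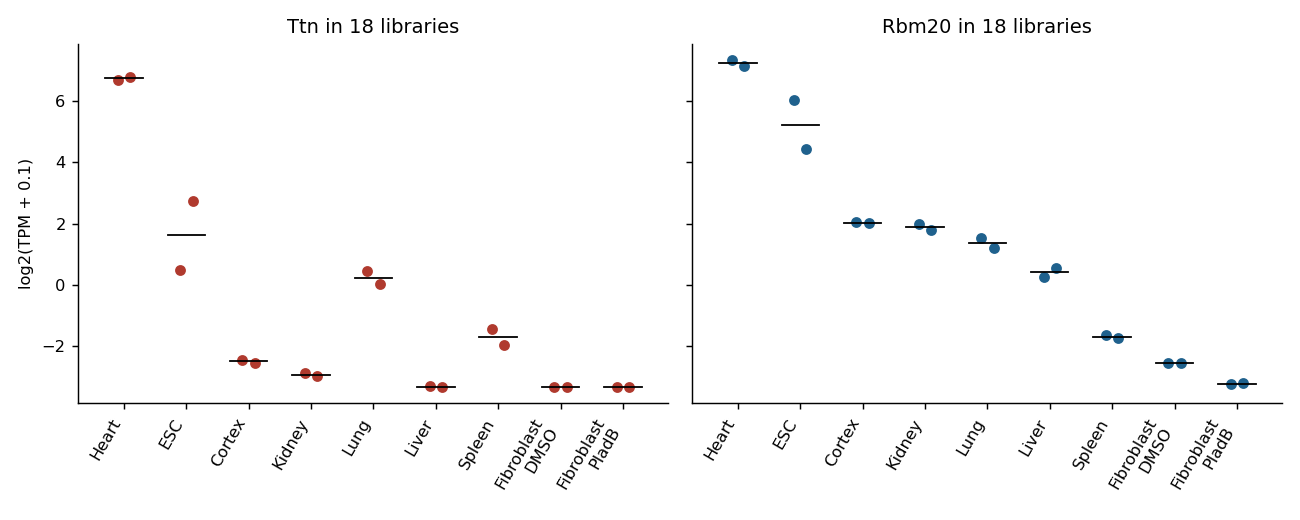
Level of Ttn (left) and Rbm20 (right) as log2(TPM + 0.1) on the vertical axis, with 1 point per library and a line at the mean of each group. Heart is the highest group in both panels, the ESC replicates lie far apart, and Ttn is at the floor of the scale in liver and fibroblasts.

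The ESC clones differed from each other in both genes, and in opposite directions. Clone 2 had 5.01 times the Ttn TPM of clone 1, and clone 1 had 3.03 times the Rbm20 TPM of clone 2. Muscle genes went both ways. The cardiac troponins Tnni3 (5.87 and 11.3 TPM) and Tnnt2 (1.64 and 4.62), Myl2 (0.253 and 0.666) and the atrial light chain Myl7 (1.35 and 5.05) were higher in clone 2. The cardiomyocyte markers Myl3 (3.61 and 0.511) and Actc1 (0.769 and 0.123) and the skeletal actin Acta1 (47.5 and 1.08) were higher in clone 1. Myh6 (0.281 and 0.279) and Ryr2 (7.50 and 7.49) were nearly equal, and Pln was at 0 in both. The sum of the 8 cardiomyocyte markers was 19.9 and 25, and that of the smooth muscle markers 59.2 and 8.96. With 2 clones the difference has no replicate check. Without ESC, the heart differences were 8.77 for Ttn and 6.42 for Rbm20.

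Lung held the next highest Ttn level among the organs, and it also held transcripts of atrial muscle. The 4 atrial markers summed to 594 to 823 TPM in lung and to 7248 to 7351 in heart, with Myl7 at 598 and 455 TPM in lung, against 3.99 to 7.96 in ESC, 11.2 to 17.1 in spleen, at most 7.34 in cortex and kidney, and at most 0.340 in liver. The part of such cells in the lung value of Ttn was not tested. In spleen, Tnnt2 was at 31.1 and 12.4 TPM, and Ttn was higher in the same replicate. Leaving lung out gave heart differences of 8.49 for Ttn and 5.65 for Rbm20. The sums of the smooth muscle, endothelial, fibroblast, immune and red blood cell lists had other orders. Smooth muscle markers summed to 1416 to 1523 TPM in heart but to 3798 to 5238 in fibroblasts, although one of them, the muscle intermediate filament gene Des, had 1320 and 1213 TPM in heart, 175 and 161 in lung and 118 and 93.3 in spleen. Endothelial markers were highest in lung (1372 to 1478), fibroblast markers in DMSO fibroblasts (1509 to 1566, although Dcn was highest in heart at 615 and 683 TPM), immune markers in spleen (520.4 to 544.7), and red blood cell markers were at least 3266 in heart, lung and spleen.

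Over the 14 tissue libraries, the log2(TPM + 0.1) of Ttn and Rbm20 had a Pearson r of 0.800. The 5 genes with the most similar pattern to Ttn were Gm572 (r = 0.980), Mybpc3 (0.976), which codes for cardiac myosin-binding protein C, Txlnb (0.969), Art5 (0.968) and the potassium channel Kcna7 (0.964). Those most like Rbm20 were Fabp3-ps1 (0.946), a pseudogene that may share reads with Fabp3, Pirt (0.945), the lens connexin Gja3 (0.939), BC002163 (0.936) and Gm14267 (0.936). These values are descriptive, since pairs of libraries share a tissue and the range is set by heart against the rest.

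Transcripts of proteins known to bind titin were mostly high in heart as well. The list is of sarcomere proteins and was chosen with earlier results of these data known, so its counts are descriptive only. Of the 22 titin partners, 20 were higher in heart and none was lower, with a median log2 difference of 7.81 against -0.72 for all genes. Of all genes tested, 11.6% were higher and 37.5% lower. The largest differences were those of the thick filament genes Myh6, the adult cardiac myosin heavy chain, and Mybpc3. Myh6 had 12122 and 11969 TPM in heart and at most 167 elsewhere, a log2 difference of 14.20 ± 0.14 (SE), and for Mybpc3 it was 11.13 ± 0.34. The smallest were those of the autophagy receptors Nbr1 (-0.41 ± 0.07) and Sqstm1 (-0.04 ± 0.28), which are linked to the titin kinase, and neither was called.

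Splicing targets of Rbm20 known from other work were mostly higher in heart as well. This list too holds many muscle genes and was chosen with earlier results known, so its counts are descriptive only. Of 21 targets, Ttn included, 17 were higher in heart, 1 was lower and 3 were not called (limma), with a median log2 difference of 4.90. The shares over all genes were 11.6% higher and 37.5% lower. After centring 20 targets were higher and 0 lower, against 19.8% and 18.1% of all genes. The Z-disc protein Ldb3, with a difference of 8.38 ± 0.18, was among the highest of the list. The reticulon Rtn4 was lower, at 23.2 and 25.2 TPM in heart against a median of 53.1 elsewhere (-1.56 ± 0.05), and was no longer called after centring (-0.90). The kinase Camk2g, with a difference of 0.59 ± 0.11, was not called, but was called higher after centring (1.25, limma adjusted p = 3.50e-05).

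Other splicing factors of striated muscle were mixed. Of the 13 on the list 12 could be matched and tested, and 4 were higher, 2 lower and 6 not called, with a median of 0.55. Over all genes 11.6% were higher and 37.5% lower. Rbm24, a muscle RNA-binding protein, stood closest to Rbm20, with 145 and 143 TPM in heart against at most 16.1 elsewhere and a log2 difference of 6.67 ± 0.21. Rbfox1 followed with 4.37 ± 0.17, although cortex libraries reached 245 TPM, above the 27.7 and 27.9 of heart. Ptbp1, a splicing repressor of many tissues, and the SR protein Srsf1 were lower (-1.66 ± 0.06 and -1.31 ± 0.07). Under centring neither was called (-0.99 and -0.65), and 7 factors were called higher, against 19.8% of all genes.

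**Figure D2:**
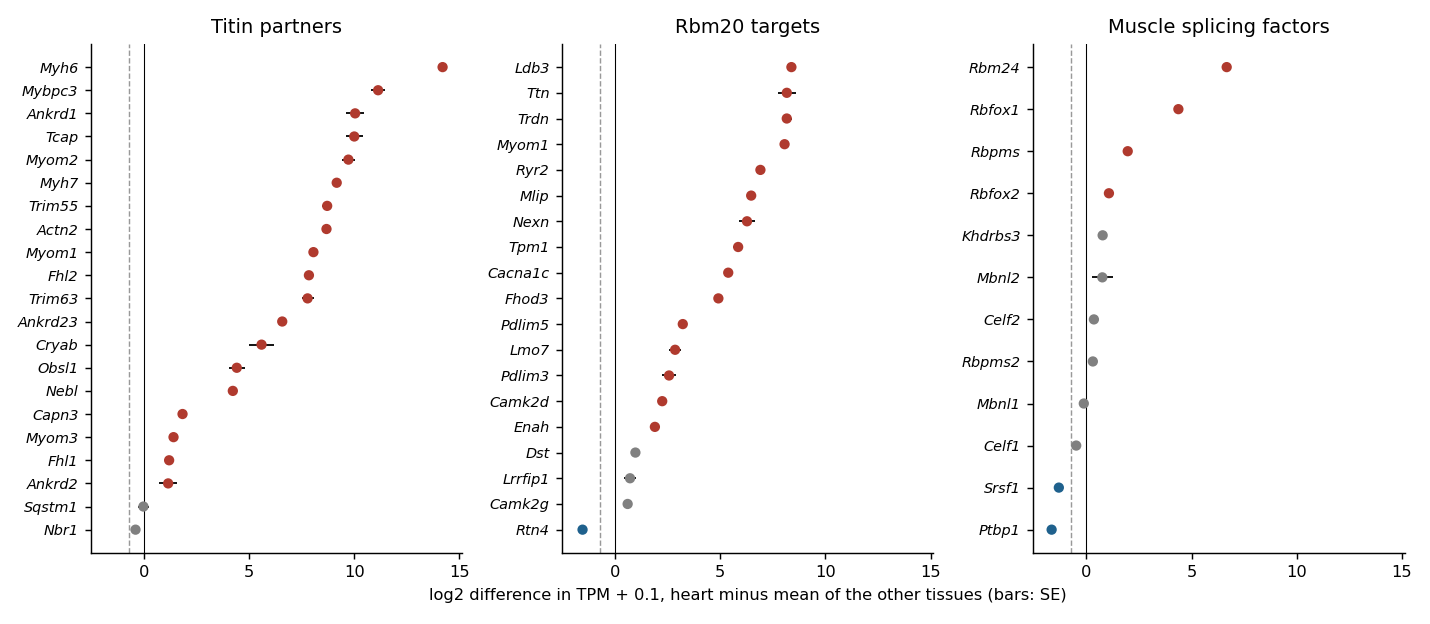
Log2 difference in TPM + 0.1 between heart and the mean of the other 6 tissues, with SE bars, for titin partners, Rbm20 targets and muscle splicing factors. Red points are called higher, blue lower and grey not called, and the dashed line is the median of all genes at -0.72. All but 2 of the titin partners shown are red, while the splicing factors spread around 0.

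Exon inclusion was measured as percent spliced in (PSI, from 0 to 1), computed from the junction reads of the included and the skipped form divided by their effective lengths. The heart table held 5 SE events of Ttn, each a different exon, and 4 of them had the required 20 reads in both replicates. The lengths of all 5 are multiples of 3, so that skipping keeps the reading frame. The event at the 3′ end of the gene had 69642 and 68429 junction reads, and the other 4 had 12 to 255 per library. The cause of this gap was not tested, and it limits what can be seen of exons away from the 3′ end.

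The exon next to the last, 303 bp at chr2:76705670-76705972, was almost always included in heart. It is the M-band exon known as Mex5, whose use is known to vary between muscles. Inclusion reads were 69631 and 68414 and skipping reads 11 and 15, a PSI of 0.9997 and 0.9996. Spleen had a PSI of 0.986 and 1.00 from 138 and 82 reads, and ESC of 1.00 and 0.985 from 104 and 530 reads. Neither difference from heart was called (adjusted p = 0.607 and 0.340, quasi-binomial model). In cortex the exon had 26 and 13 reads and a PSI of 0.677 and 1.00, too few for the test. With a minimum of 10 reads it was called (difference 0.161, adjusted p = 0.00534), although 1 cortex replicate had no skipping read.

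Closest to the start of the gene were a pair of neighbouring exons of 138 bp each, in the part that codes for the Z-disc end of titin, where α-actinin binds. The upstream exon of the pair (chr2:76965777-76965914), 16.6 kb from the start, had 248 and 192 inclusion reads and 7 and 2 skipping reads, a PSI of 0.947 and 0.980. The other (chr2:76965091-76965228), 17.3 kb from the start, had 108 and 126 inclusion and 21 and 23 skipping reads, a PSI of 0.720 and 0.733. It was the least included Ttn exon that met the read minimum, and its replicates differed by 0.013.

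Further in, an exon of 78 bp (chr2:76862350-76862427) had 184 and 143 inclusion and 2 and 13 skipping reads, a PSI of 0.979 and 0.846. The replicates were thus unequal. An exon of 267 bp (chr2:76802231-76802497) was skipped in most reads, but had only 12 and 19 reads in heart, with a PSI of 0.143 and 0.226. In ESC the same exon had 8 and 25 reads and a PSI of 0.778 and 0.282. An exon of 300 bp (chr2:76763847-76764146) was listed in ESC alone, with 13 and 52 reads and a PSI of 1.00 and 0.926. No test was made on either exon. Kidney, lung and liver held no Ttn event.

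The Rbm20 transcript itself was spliced nearly uniformly in most of the events seen. Lung, spleen and liver held no Rbm20 event. Of the 9 Rbm20 exons in the tissue tables, which make 10 events because the 122-bp exon has 2 choices of flank, 6 were seen in heart with enough reads. The exons of 80 bp (PSI 1.00 and 0.988), 132 bp (0.995 and 0.984) and 122 bp (0.990 and 1.00) were almost always included in heart, and the 87-bp exon in 0.973 and 0.975. The flanks of the 122-bp event in heart also enclose the exons of 87, 640 and 132 bp. It therefore does not measure skipping of the 122-bp exon alone. In ESC the event of the 132-bp exon 173.7 kb from the start likewise encloses the 144-bp exon. An exon of 46 bp (chr19:53852354-53852399), whose length is not a multiple of 3, was almost always skipped. Its PSI was 0.00554 and 0.0114 in heart, 0.0108 and 0.00243 in ESC and 0.0101 and 0 in kidney, and neither difference from heart was called (adjusted p = 0.994 and 0.931). The event of the 640-bp exon, the longest, had 101 and 89 reads and a PSI of 0.757 and 1.00. Its inclusion junctions are those that skip the neighbouring 87-bp and 132-bp exons. The PSI thus describes rare transcripts that lack 1 or both of these, and is not the inclusion of the 640-bp exon over all transcripts. Skipping reads of this event were only 14 and 0. Its replicates differed more than those of any other Rbm20 event in heart. In ESC the exons of 92 bp (0.983 and 1.00), 144 bp (1.00 and 0.969), 132 bp (1.00 and 0.990 for the one 173.7 kb from the start, 0.998 and 0.991 for the one at 192.5 kb) were close to full inclusion, as was the 122-bp exon in kidney (0.979 and 1.00).

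The 87-bp exon of Rbm20 (chr19:53850102-53850188) was the 1 exon of either gene with enough reads in 4 tissues. Its PSI was 0.973 and 0.975 in heart, 0.941 and 1.00 in cortex, 1.00 and 0.979 in kidney, and 0.899 and 0.853 in ESC. Both ESC clones were below the 6 organ libraries. The difference between heart and ESC was 0.098 with an adjusted p of 0.0273 in the quasi-binomial model, just under the limit of 0.1 set for a call. The differences of heart from cortex and kidney were 0.003 and -0.016 (adjusted p = 0.932 and 0.757).

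Between heart and the other tissues, 8 comparisons of Ttn or Rbm20 events could be made in the quasi-binomial model and none was called at an adjusted p below 0.05 and a PSI difference of at least 0.1. Over all events 13% were called against cortex, 9.53% against kidney, 9.76% against spleen and 4.7% against ESC. At an unadjusted p below 0.05 there was 1, the 87-bp exon in ESC. In simulated data of the 16517 events tested between heart and ESC, the model recovered 16% of differences of 0.2 and 97% of differences of 0.4. The simulated differences were placed only in events of intermediate PSI. These rates are thus not specific to Ttn and Rbm20, whose events were mostly near a PSI of 0 or 1. The recovery for their events was not tested.

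Exons of Rbm20 targets other than Ttn served to compare. In these 20 genes 50 of 121 events differed between heart and cortex, 29 of 71 for kidney, 35 of 105 for lung, 29 of 58 for spleen, 19 of 38 for liver and 23 of 75 for ESC, between 30.7% and 50% of those tested. The comparisons share the heart libraries, and events of 1 gene are not independent. For lung and liver the share over all events was 8.25% and 11.1%. The events of the targets and all events were not matched for read depth, which limits the comparison of these shares. At least 1 exon was called in 15 of the 20 genes, with calls in both directions. In heart 29 of the 50 events called against cortex were higher and 21 lower, and against the other tissues 16 to 28 were higher and 1 to 7 lower. Ranked by the largest difference of each gene, the first 5 genes had more inclusion in heart, and exons of 4 of them are described next. The next in rank, a 60-bp exon of the kinase Camk2d, had a PSI of 0.128 and 0.125 in heart and 0.990 and 0.984 in cortex.

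Pdlim5, a Z-disc adaptor, had an 18-bp exon with a PSI of 0.881 and 0.875 in heart and at most 0.104 in the 5 other tissues where it was seen, kidney being lowest (0.00675 and 0.00142, adjusted p = 1.50e-15). Heart thus lay above every other tissue in which this exon was seen.

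A further 3 exons did not set heart apart from all tissues. A 36-bp exon of the ryanodine receptor Ryr2, the calcium release channel, had 0.932 and 0.942 in heart and 0.981 and 0.945 in ESC, but 0 and 0.00466 in cortex (difference 0.935, adjusted p = 2.55e-16). The 327-bp exon of the cytoskeletal linker Dst was at 0.993 and 1.00 in heart and at 0.100 and 0.0848 in cortex, the lowest of the 5 tissues with this event. The 282-bp exon of Lmo7 was at 0.895 and 0.871 in heart, 0.927 and 0.947 in cortex, and 0.0256 and 0.0159 in liver (adjusted p = 4.26e-09). These Lmo7 values are for 1 choice of flanking exons, with 1351 and 1157 reads in heart. In another heart event of the same exon, inclusion was low on both alleles. Its PSI was 0.246 and 0.208 on C57BL/6J and 0.361 and 0.372 on SPRET/EiJ, from 5295 allelic reads. The first event is thus not the inclusion of the exon over all transcripts.

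**Figure D3:**
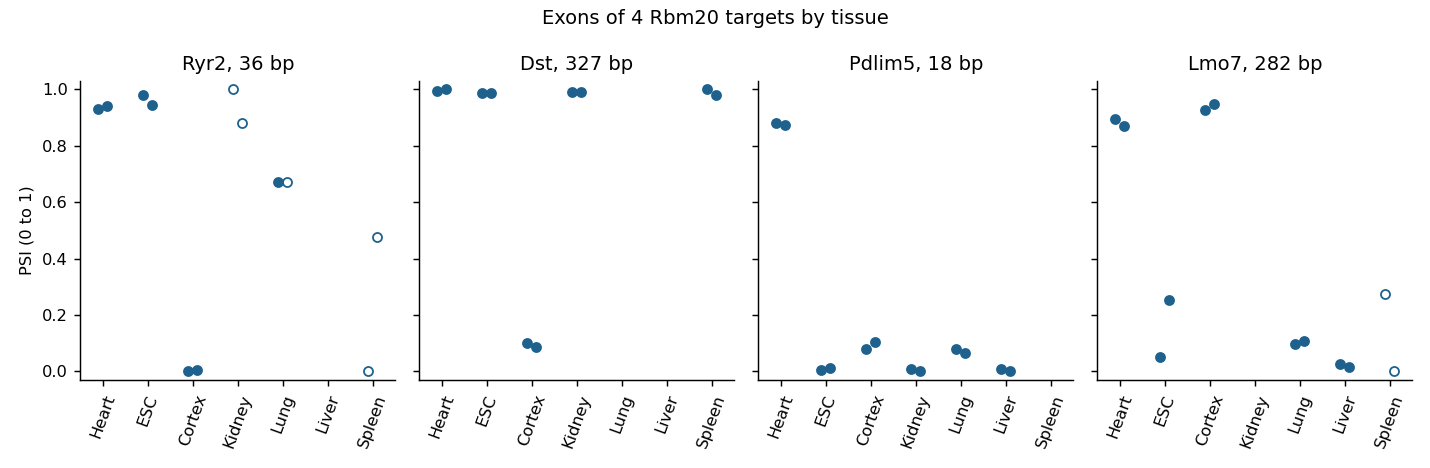
PSI of 1 exon in each of 4 Rbm20 targets in the 7 tissues, 1 point per library, with open circles where the event had under 20 reads. The Pdlim5 exon is highest in heart, while those of Ryr2 and Dst are low in cortex.

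Reads that differ between the 2 genomes give the same measurements for each allele. Within an F1 cell both alleles meet the same factors, which is why a difference between them is read as acting in cis. The order of the alleles in the tables was checked with imprinted genes. The share of reads on C57BL/6J, the maternal allele, was at most 0.121% for Peg3 and Snrpn and at least 99.4% for Meg3 in the organs where they were measured. Igf2r, also maternal, was at 93.8 to 98.8% in heart, kidney and lung but at 54.4% and 58.1% in cortex. In ESC the shares of 6 imprinted genes lay between 41.9 and 73.7%, so the check says nothing for ESC, whose table was read with the same order of columns.

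Neither gene had an exon called different between alleles in heart, where 8 events, 2 of Ttn and 6 of Rbm20, had 20 reads on each allele in both replicates. Over all events 3.79% were called there, and none of the 8 had an unadjusted p below 0.05 in the quasi-binomial model. The Mex5 exon had a PSI of 0.9998 and 0.9995 on C57BL/6J and 0.9993 and 0.9992 on SPRET/EiJ. The 78-bp Ttn exon had 1.00 and 0.762 on C57BL/6J and 1.00 and 1.00 on SPRET/EiJ, a difference of -0.119 (adjusted p = 0.473) that rested on 5 skipping reads of the C57BL/6J allele in replicate 2. In that replicate alone it was -0.238, and in the other 0. In simulated data of all 16684 events tested in heart, differences were placed only in events of intermediate PSI. There the model recovered 32% of allelic differences of 0.2 and 95% of those of 0.4. The recovery for the 8 events of Ttn and Rbm20 was not tested, and a difference like that of the 78-bp exon could be missed.

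Among the Rbm20 events in heart the allelic differences were between -0.096, for the event of the 640-bp exon, and 0.008. The 640-bp exon had 0.674 and 1.00 on C57BL/6J and 0.867 and 1.00 on SPRET/EiJ, so that replicate 1 was lower on both alleles. In cortex, kidney, spleen and ESC a further 10 events could be compared between alleles and none was called in the quasi-binomial model or had an unadjusted p below 0.05, against 2.67%, 3.17%, 3.04% and 0.127% of all events.

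The 138-bp Ttn exon 17.3 kb from the start could not be compared between alleles, and its reads show why. Skipping reads could be given to an allele in 20 of 21 and 23 of 23 cases, but inclusion reads only in 28 of 108 and 35 of 126, which is 25.9% and 27.8%. PSI from allelic reads was 0.412 and 0.432 where all reads gave 0.720 and 0.733. On C57BL/6J, PSI was 0.355 and 0.396. SPRET/EiJ had 6 and 21 reads, with a PSI of 1.00 and 0.500. These values are not estimates of the inclusion on either allele. For the neighbouring exon of the same length only 13 and 6 inclusion reads could be given to an allele.

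**Figure D4:**
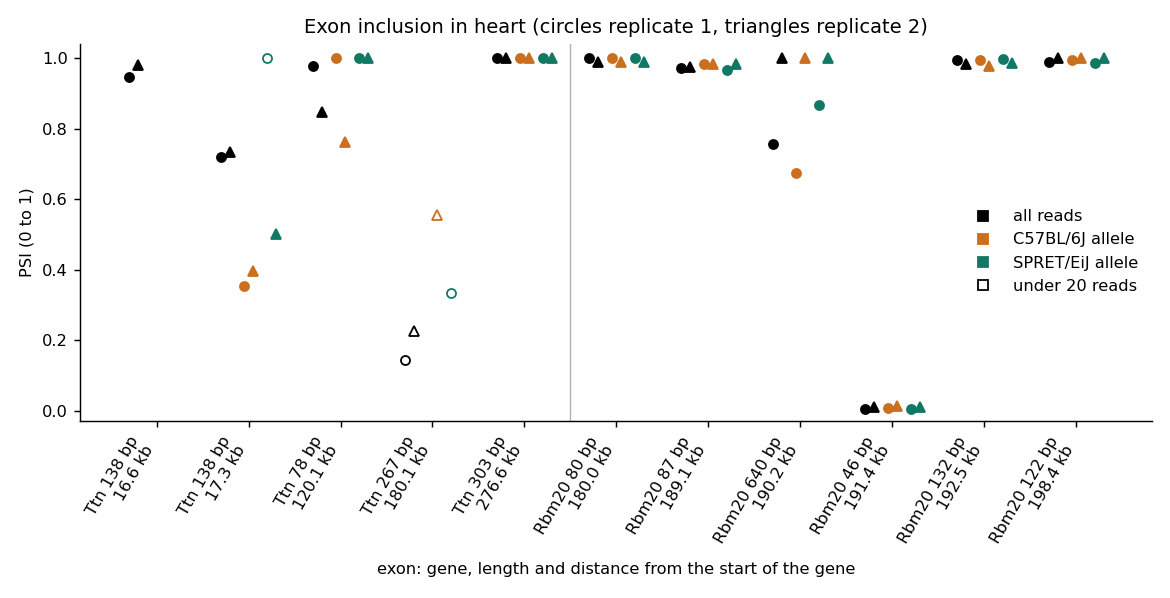
PSI in heart of the 5 Ttn and 6 Rbm20 exons, ordered along each gene, from all reads (black) and from reads of the C57BL/6J (orange) and SPRET/EiJ (green) allele, with replicate 1 as circles and replicate 2 as triangles. Open symbols have under 20 reads. At 17.3 kb the allelic values lie apart from those of all reads, and the 46-bp Rbm20 exon is near 0 throughout.

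The share of allelic reads on C57BL/6J, a measure of allelic expression, was taken for each gene from its event with the most reads and compared with the median share of all genes, with a call at an adjusted p below 0.05 and 10 percentage points. This comparison was added after values had been seen. Ttn in heart was balanced, with 49.3% and 49.9% of 46078 and 44445 reads (adjusted p = 0.0677, limma-moderated quasi-binomial model). Rbm20 in heart was at 47.6% and 45.5%, a difference of -4.06 points from the median (adjusted p = 0.00552) that is within the limit. In heart 21.7% of genes were called.

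In ESC, by contrast, Rbm20 was read mostly from SPRET/EiJ. The C57BL/6J share was 33.5% in clone 1 (95% Clopper-Pearson interval 30.8 to 36.2%) and 15.9% in clone 2 (12.8 to 19.3%), on average a difference of -25.6 points from the median (adjusted p = 0.00672), in a tissue where 23.7% of genes were called. All 5 Rbm20 events showed it, with shares of 29.3 to 35.6% in clone 1 and 14.1 to 23.2% in clone 2, although events of 1 gene share reads and are not replicates. The genes of chromosome 19 had a median of 49.6% and 50.4%. Multiplied by the TPM, the shares correspond to 21.5 and 3.37 TPM from C57BL/6J and 42.8 and 17.9 from SPRET/EiJ, so both alleles were lower in clone 2. Intervals of single libraries cover counting error only.

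In kidney the Rbm20 share leaned the other way. It was 53.4% and 76.6% of 88 and 94 reads for the 122-bp exon (adjusted p = 0.0368, with 24.2% of genes called), and 70.6% and 61.3% for the 87-bp exon. In cortex it was 50.8% and 48.1% (adjusted p = 0.944, with 15.7% of genes called). Ttn had 41.7% and 59.4% in spleen and 62.3% and 46.2% in ESC, where replicates fell on both sides of 50% and neither was called (adjusted p = 0.879, with 21.2% of genes called in spleen, and 0.905).

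**Figure D5:**
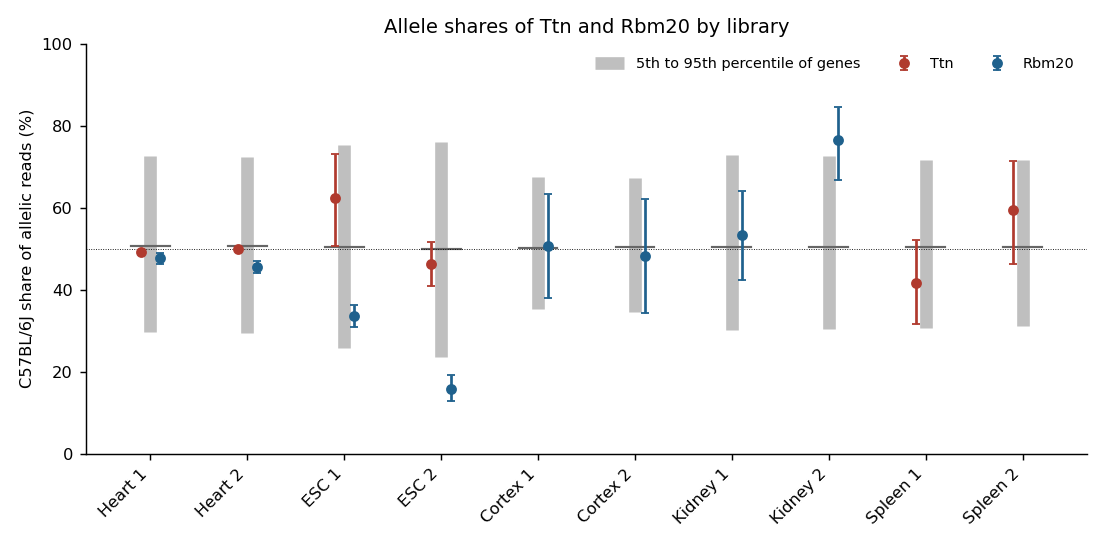
Share of allelic reads on C57BL/6J (in %) for Ttn (red) and Rbm20 (blue) in each library, with 95% Clopper-Pearson intervals. Grey bars span the 5th to 95th percentile of all genes with their median as a line. Rbm20 lies at 33.5% and 15.9% in ESC and above the median in kidney, and Ttn in heart lies at the median.

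In fibroblasts both genes were near the lower end of the scale. Rbm20 had 0.0702 and 0.0713 TPM with DMSO and 0.00699 and 0.00871 TPM with pladienolide B, so the treated libraries were lower, but neither gene reached the minimum of 1 TPM in 2 libraries and no test was made on the filtered table. Without that filter, the log2(TPM + 0.1) difference of Rbm20 was -0.66 ± 0.12 (SE; limma, adjusted p = 0.00942). Ttn was listed at 0 in all 4 libraries. How many reads stand behind these values is unknown, as the table gives no counts.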

How the data were processed

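RNA-seq libraries of 7 tissues with 2 replicates each and of 4 fibroblast cultures were used. The authors aligned reads with HISAT2 2.0.1 to the C57BL/6J (mm10) and SPRET/EiJ genomes, gave each read to the genome it matched better, and counted junction reads over SE events with rMATS. The deposited lists of inclusion and skipping read counts (replicate 1 and 2 in one cell) and effective lengths are not normalized. The deposited expression values are TPM per gene, made by the authors from all reads, which sets all genes of a library to a common total. The columns of the authors' own comparisons, with p-values, FDR and inclusion level differences, and the fibroblast splicing tables were not used.

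PSI was computed from counts and effective lengths on chromosomes 1 to 19, with at least 20 reads per replicate (and per allele). Differences were tested on all events with a quasi-binomial model, with dispersions of at least 1 moderated by squeezeVar of limma 3.58.1 along read depth, and called at a Benjamini-Hochberg adjusted p below 0.05 and a PSI difference of 0.1. TPM was tested as log2(TPM + 0.1) with limma in 1 fit of the 14 tissue libraries, on genes with at least 1 TPM in 2 libraries. A pseudocount understates changes of low genes. The prior for the dispersion was first set by events with 5 reads of each form. After its calls had been seen it was changed to events with at least 1 read of each form in every library. On simulated data with 200 changed features, at most 2.31% of the quasi-binomial calls and 3.98% of the limma calls were false. In these data limma recovered 96.5% of 4-fold changes. For the quasi-binomial model the simulated spread between replicates was set by a formula and not estimated from these libraries.

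The members, gene lists and named genes were chosen with earlier results of these data known. Each Ttn exon was represented by its event with the most heart reads. Named were the exons of both genes with enough reads, the 5 genes most correlated with each, the 2 highest and 2 lowest members of each list, and 1 exon for each of 5 targets. Some genes of this rule are not reported here but stay in the counts. The 267-bp and 300-bp exons, with fewer reads, were added for completeness. Both alleles of a replicate come from 1 library, and their replicate differences had an r between 0.0938 and 0.424. The software was Python 3.11.15 and R 4.3.3. The liver labels carry strain names that differ from the other libraries, and they were used as liver of the same cross. Gene positions came from RefSeq (GRCm38.p6), where both symbols matched.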

Additional observations from a re-analysis of the deposited data

Results flagged for a closer look

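The allelic reads of Rbm20 leaned to opposite sides in kidney and ESC. For the 87-bp exon, the C57BL/6J share was 70.6% and 61.3% in the kidney replicates, both above 50%, and 33.5% and 15.9% in the ESC clones, both below. This difference between the tissues was not tested. The kidney values rest on 85 and 93 reads, and those of ESC on 1228 and 523. Culture, clone and tissue cannot be told apart here, and the part of read depth was not tested.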

How the results depend on the processing

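The heart differences of Ttn and Rbm20 kept their direction and their call under all alternatives run. With a pseudocount of 1 they were 6.15 and 5.06, and without single heart replicates they ranged from 8.11 to 8.21 for Ttn and from 5.59 to 5.78 for Rbm20. Without single ESC clones they ranged from 7.97 to 8.35 and from 5.55 to 5.81. The absence of allelic calls, in heart and elsewhere, held with the library as a replicate block (0 calls), minima of 10 and 40 reads, no depth trend, events near 0 or 1 left out, allelic PSI held to that of all reads, and PSI without effective lengths, and with the first form of the prior, added later. Between heart and other tissues a minimum of 10 reads gave 1 call, the Mex5 exon in cortex, where fewer reads suffice by construction, and the replicate block and all others gave 0. The 87-bp Rbm20 exon kept a difference of 0.097 to 0.099 from ESC, but its adjusted p was 0.0507 without events near 0 or 1 and 0.213 and 0.225 without single heart replicates, where the lone replicate is assumed to vary like the others. Centring on the median gene, added after the data were seen, gave 20 Rbm20 targets higher and 0 lower, and 7 splicing factors higher and 0 lower. A pseudocount of 1 gave 18 titin partners higher, the fewest of the alternatives run, where the main fit gave 20. Leaving out single heart replicates gave 17 targets, 19 titin partners and 4 splicing factors higher. Replicate numbers of different tissues did not pair (r between -0.037 and 0.173), and the block changed no call of Ttn or Rbm20. It called 25 allelic events of the other Rbm20 targets in heart where 23 were called without it. Heart allelic differences without single replicates ranged from -0.238 to 0 for the 78-bp Ttn exon. The effect of pladienolide B had no value after the filter, so its alternatives were not run except the one without filter. Low reads of the Ttn events other than the one at the 3′ end limit what could be detected there.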

Other observations

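Exons of Rbm20 targets other than Ttn differed between alleles in heart. Of 224 events in these 20 genes, 23 events, made of 20 exons in 8 genes, were called, which is 10.3% against 3.79% of all events, with 15 lower and 8 higher on C57BL/6J. With allelic PSI held within 0.1 of that of all reads, 22 of 217 were called. These genes were picked after their values were seen, by the largest difference in a gene. A 33-bp exon of the calcium-dependent kinase Camk2d had 0.546 and 0.468 on C57BL/6J and 0.0372 and 0.0546 on SPRET/EiJ (difference 0.461, adjusted p = 6.63e-08, quasi-binomial model). A 1545-bp exon of Mlip, a muscle lamin-interacting protein, had 0.561 and 0.298 against 0.864 and 0.846 (adjusted p = 0.00982). Exons of Ldb3 (204 bp, -0.231) and Lmo7 (720 bp, -0.225) were also lower on C57BL/6J. Events of 1 gene overlap, so their count is not a count of independent differences.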
